A study of Mus musculus with 6 samples.

Results

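The genes described are the 4 ligands and 2 receptors of the platelet-derived growth factor (PDGF) family: Pdgfa, Pdgfb, Pdgfc, Pdgfd, Pdgfra and Pdgfrb. They were chosen by name, as the probe sets annotated with exactly 1 of these symbols, and all 6 were found among 20239 named genes with 1 probe set each. The samples were isolated pericytes of C57BL/6 mice, either given PDGF-BB at 100 ng/ml for 5 days (3 arrays) or kept as controls (3 arrays), with total RNA hybridised to 1-colour arrays. The labels name no agent or vehicle for the controls. They do not say from which organ the cells came or whether the arrays represent separate isolations, so every p-value below rests on array-to-array spread that could be technical. The questions asked were which PDGF ligands the pericytes themselves transcribe, and whether ligand and receptor transcripts differ after sustained exposure to PDGF-BB. Since the added factor is a protein, the arrays report only the cells' own transcripts.

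PDGF chains form disulphide-linked dimers that bring receptor tyrosine kinases together. PDGFR-α (Pdgfra) binds the A, B and C chains, whereas PDGFR-β (Pdgfrb) binds the B and D chains, and PDGF-BB engages both receptors. In growing vessels, endothelial cells release PDGF-B and pericytes follow it through PDGFR-β. The A and B chains are cut to their mature form by furin-like convertases, while the C and D chains are secreted with a CUB domain that extracellular proteases must remove.

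All values are log2 expression values that the authors obtained with RMA, so a difference of 1 is a doubling of the signal. The array medians lay between 8.43 and 8.46, and arrays correlated across genes at r = 0.994 to 0.996 within a group and 0.973 to 0.986 between groups. Since RMA gives no detection call, a level that marks absent genes was taken as the 90th percentile of the means of 18 genes of lymphocytes, mast cells and the erythroid lineage, 7.64; 38.3% of all genes lay under it. A second set of 21 organ-restricted genes gave 8.13. Of 14 pericyte markers 7 lay above 7.64, among them Cspg4, Anpep and Cd248, whereas Abcc9, Des, Higd1b, Vtn, Ndufa4l2, Atp13a5 and Rgs4 did not; 5 of the 14 lay above 8.13. All 10 fibroblast markers lay above 8.13. The name pericyte is that of the sample titles, and only some of the pericyte markers lay above background in these cultures. Of 12 endothelial markers, 3 (Eng, Vwf and Cldn5) lay above 7.64, and Pecam1, Kdr and Tek did not. Above 8.13 lay 1, Eng, since Vwf and Cldn5 were close to the lower level.

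Of the 4 ligands, Pdgfa, Pdgfc and Pdgfd were above both background levels on all 6 arrays. The levels are 90th percentiles, so some genes taken as absent lay above them. Oxt, an organ-restricted gene, had means of 8.94 with PDGF-BB and 9.07 in control. The Pdgfd mean lay under these with PDGF-BB (8.62) and above them in control (9.74). Pdgfb, which encodes the chain of the added factor, was above 7.64 on 1 array and above 8.13 on none. Both receptor transcripts were above both levels on all 6 arrays. Probe sets differ in how strongly they bind, so the levels of the 6 genes were not set against each other.

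**Figure D1:**
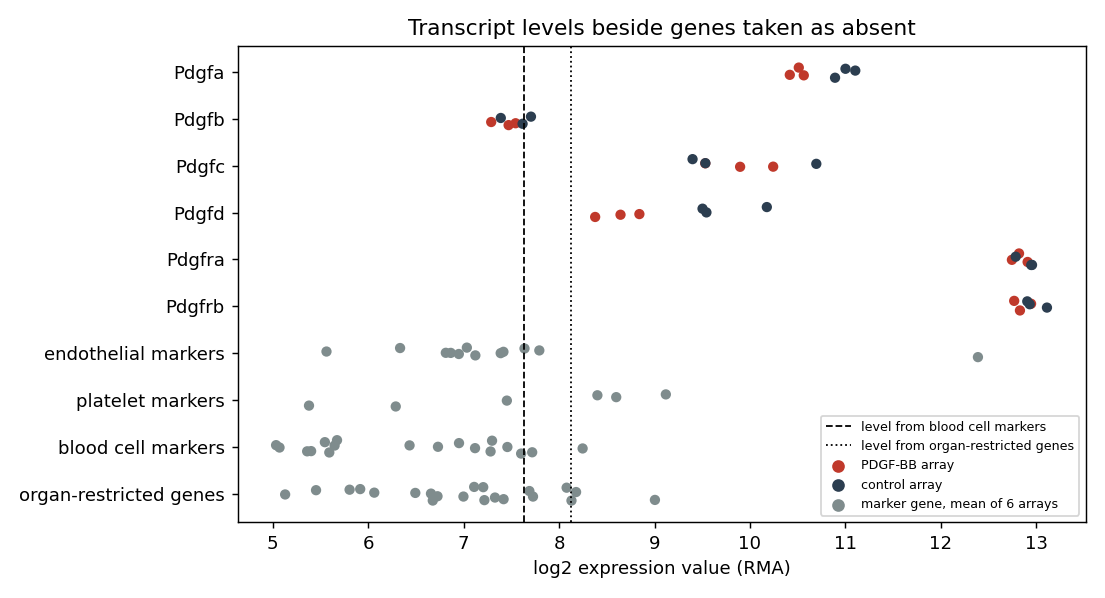
Log2 expression values of the PDGF ligands and receptors on the 3 PDGF-BB and 3 control arrays, above the 6-array means of endothelial, platelet, blood cell and organ-restricted marker genes (grey points, 1 per gene). The vertical lines are the 2 background levels, 7.64 and 8.13; the Pdgfb points surround the lower line and the points of the other 5 genes lie to the right of both.

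After PDGF-BB, 2 of the 6 genes were lower, Pdgfd and Pdgfa, and 0 were higher (limma's moderated test on the whole table, Benjamini-Hochberg adjusted p under 0.05). Among all genes 11.4% were called lower and 10.1% higher, 21.5% in all. With the arrays of the same number paired as a block, the same 2 genes were lower and 0 higher, where 12.5% of all genes were called lower and 10.9% higher, 23.4% in all. At an unadjusted p under 0.05 the counts for the 6 genes were the same, 2 lower and 0 higher, where 17.4% of all genes were lower and 15.3% higher. The median log2 change of the 6 was -0.14, against -0.02 over all genes tested. The groups did not overlap in Pdgfd and Pdgfa and overlapped in the other 4; across all genes, 20.6% lay lower on every PDGF-BB array and 37.6% did not overlap in either direction.

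Pdgfd (Entrez gene 71785) encodes the D chain, a ligand of PDGFR-β. It measured 8.84, 8.38 and 8.64 on PDGF-BB arrays 1, 2 and 3, against 9.54, 10.18 and 9.50 on control arrays 1, 2 and 3. Every PDGF-BB array lay below every control array, with a gap of 0.66 between the groups; control array 2 was the highest and PDGF-BB array 2 the lowest. The means were 8.62 ± 0.23 with PDGF-BB and 9.74 ± 0.38 in control (SD, n = 3 each), a log2 change of -1.12 (SE 0.20, 95% interval -1.59 to -0.65, adjusted p = 0.0087, limma), or 2.17-fold lower. Between arrays of the same number the differences were -0.70, -1.80 and -0.86. The PDGF-BB mean lay 0.98 above the background level of 7.64, and a signal close to background understates a fall. The size of this change exceeded that of 97.3% of all genes.

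Pdgfa (Entrez gene 18590) encodes the A chain, which signals through PDGFR-α. It measured 10.56, 10.42 and 10.51 on PDGF-BB arrays 1, 2 and 3, against 10.89, 11.10 and 11.00 on control arrays 1, 2 and 3. The PDGF-BB arrays again lay below all controls, with a gap of 0.33, and the arrays of each group were close together. The means were 10.50 ± 0.07 with PDGF-BB and 11.00 ± 0.11 in control (SD, n = 3 each), a log2 change of -0.50 (SE 0.08, 95% interval -0.68 to -0.32, adjusted p = 0.0048, limma), or 1.42-fold lower. The differences between arrays of the same number were -0.33, -0.69 and -0.49. As in Pdgfd, the pair numbered 2 differed most and the pair numbered 1 least.

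**Figure D2:**
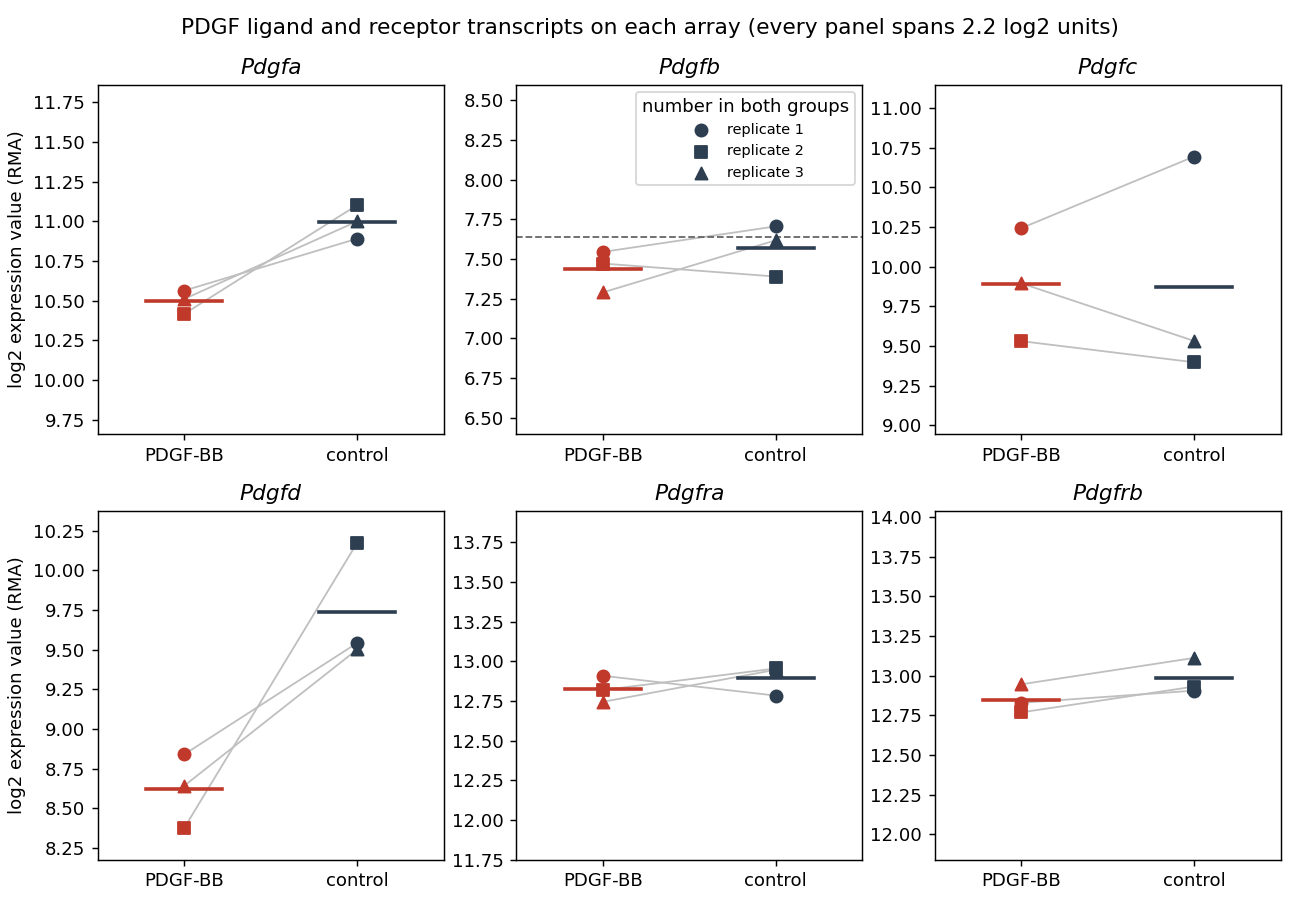
Log2 expression values of the 6 genes, with PDGF-BB arrays (red) on the left and control arrays (dark blue) on the right of each panel. Bars are group means, grey lines join arrays of the same number, and the dashed line in the Pdgfb panel is the background level of 7.64. Pdgfa and Pdgfd are lower on all 3 PDGF-BB arrays, while the groups overlap in the other 4 panels.

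The upstream sequences of Pdgfa and Pdgfd are shown because these are the members that passed the test, both as lower. Shared control of the 2 genes was not tested. RefSeq's promoter windows (GRCm38.p6) covered 4 of the 6 genes; the 250 bases before the annotated start are given 5′ to 3′ on the gene's strand, with motif matches in capitals. The Pdgfa window lies at chr5:138994945-138995194 on the minus strand, and the Pdgfd window at chr9:6168236-6168485 on the plus strand.
Pdgfa: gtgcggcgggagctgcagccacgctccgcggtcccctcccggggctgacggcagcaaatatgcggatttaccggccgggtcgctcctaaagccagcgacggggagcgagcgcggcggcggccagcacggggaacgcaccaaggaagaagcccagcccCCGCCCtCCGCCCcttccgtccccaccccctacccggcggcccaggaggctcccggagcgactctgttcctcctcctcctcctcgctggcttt
Pdgfd: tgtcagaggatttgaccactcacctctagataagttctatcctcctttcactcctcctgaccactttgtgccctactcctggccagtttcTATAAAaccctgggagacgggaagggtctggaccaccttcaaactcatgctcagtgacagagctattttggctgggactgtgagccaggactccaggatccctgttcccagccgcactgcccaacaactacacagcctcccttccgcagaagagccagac

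Both strands were searched for 5 motifs. The first was a GC box, with the letters GGGCGG. An EGR1 motif was written GCGNGGGCG, which can overlap a GC box. The TATA box was TATAAA. The other two were a CCAAT box, with the letters of its name, and an AP-1 motif, TGANTCA. The capitals in Pdgfa are 2 GC boxes on the opposite strand, at positions -93 to -88 and -86 to -81 from the start; 32.7% of the 32851 windows of the same length hold a GC box. The capitals in Pdgfd are a TATAAA at -160 to -155, letters found in 12.4% of windows. The 2 sequences share none of these motifs, and GC content was 72.4% in Pdgfa and 53.6% in Pdgfd, against a median of 52.4% over all windows. A match describes letters and was not tested as a binding site. RefSeq gives Pdgfa a further start inside the transcript that begins at the start shown, and its window is not printed.

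Pdgfb (Entrez gene 18591) measured 7.54, 7.47 and 7.29 on PDGF-BB arrays 1, 2 and 3, against 7.71, 7.39 and 7.62 on control arrays 1, 2 and 3. The groups overlapped, and all but control array 1 lay under 7.64. Its log2 change was -0.14 (SE 0.10, 95% interval -0.38 to 0.11, adjusted p = 0.44, limma). At this level a fall of this transcript may be understated or go unseen, although falls were called in some genes under 7.64. Ppbp, a platelet marker, had means of 6.00 with PDGF-BB and 6.58 in control (adjusted p = 0.0049, limma).

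Pdgfc (Entrez gene 54635) encodes the C chain, a ligand of PDGFR-α. It measured 10.24, 9.53 and 9.90 on PDGF-BB arrays 1, 2 and 3, against 10.69, 9.40 and 9.53 on control arrays 1, 2 and 3. The array numbered 1 was the highest and the array numbered 2 the lowest in both groups. Its SD within groups was 0.36 with PDGF-BB and 0.71 in control, and the pooled spread was larger than that of 99.1% of all genes. The log2 change was 0.02 (SE 0.35, adjusted p = 0.99, limma), and its 95% interval, -0.81 to 0.84, covers a fall of up to 1.76-fold and a rise of up to 1.80-fold. With the replicate number as a block the interval narrowed to -0.36 to 0.39 (adjusted p = 0.97). The sign of the change turned when control array 2 (-0.22), control array 3 (-0.16) or PDGF-BB array 1 (-0.16) was omitted, and no direction is given.

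Pdgfrb (Entrez gene 18596), the receptor by which pericytes are recruited, measured 12.83, 12.77 and 12.95 on PDGF-BB arrays 1, 2 and 3, against 12.91, 12.93 and 13.11 on control arrays 1, 2 and 3. PDGF-BB array 3 lay above the controls numbered 1 and 2, so the groups overlapped, although each PDGF-BB array was lower than the control of its own number, with differences of -0.08, -0.16 and -0.17. The log2 change was -0.14 (SE 0.08, 95% interval -0.32 to 0.05, adjusted p = 0.31, limma; adjusted p = 0.21 with the replicate number as a block). A fall of this transcript by more than 1.25-fold lies outside the interval.

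Pdgfra (Entrez gene 18595), which also marks fibroblasts and other mesenchymal cells, measured 12.91, 12.82 and 12.74 on PDGF-BB arrays 1, 2 and 3, against 12.78, 12.95 and 12.95 on control arrays 1, 2 and 3. The groups overlapped, and the differences between arrays of the same number were 0.13, -0.14 and -0.20. The log2 change was -0.07 (SE 0.07, 95% interval -0.25 to 0.10, adjusted p = 0.59, limma), and a fall by more than 1.19-fold lies outside the interval.

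**Figure D3:**
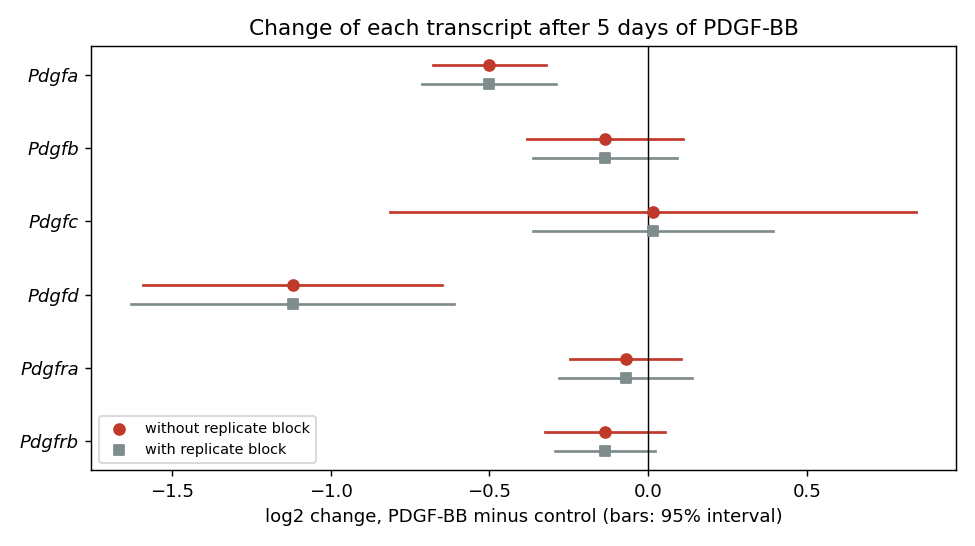
Log2 change (PDGF-BB minus control) of each gene with its 95% interval, from the limma fit without (red circles) and with (grey squares) the replicate number as a block. The intervals of Pdgfd and Pdgfa lie below 0 in both fits, those of the other 4 genes include 0, and the interval of Pdgfc is narrower with the block.

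Whether the 6 transcripts changed unequally was examined on the 15 within-array differences between pairs of genes. The change of Pdgfa minus that of Pdgfd was 0.62, so Pdgfd had the larger fall. The change of Pdgfd minus that of Pdgfra was -1.05, and minus that of Pdgfrb it was -0.98. The change of Pdgfa minus that of Pdgfra was -0.43, and minus that of Pdgfrb it was -0.37. Each of these 5 differences gave p = 0.10 in a two-sided exact permutation test over the arrays, the smallest that 3 arrays against 3 allow, and 0.21 after Benjamini-Hochberg adjustment over the 15 pairs, so none can pass at this size. The changes of the 2 receptors differed from each other by 0.06 (exact p = 0.70).

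The genes whose values followed Pdgfa and Pdgfd most closely over the 6 arrays were looked up among 12489 other genes above 7.64. For Pdgfa they were Nkain4, an interactor of the sodium pump (Pearson r = 0.9995), Fkbp15 (r = 0.998) and Pmm1, a phosphomannomutase (r = 0.998), with log2 changes of -0.73, -0.28 and -0.55. For Pdgfd they were Akirin2, a nuclear protein (r = 0.998), Slc25a23, a mitochondrial carrier (r = 0.995), and Zfp458, a zinc finger protein (r = 0.995), with log2 changes of -0.20, -0.94 and -0.48. These are descriptions over 6 arrays that share a treatment: r exceeded 0.95 for 748 genes (5.99%) with Pdgfa and for 363 (2.91%) with Pdgfd. Akirin2 did not pass the test itself (adjusted p = 0.056), and it passed with repeated quantile normalization (0.024), with array weights (0.049) and with dim genes below the 50th percentile removed (0.050). The Fkbp15 call (adjusted p = 0.015) was lost without control array 2 (0.052) or PDGF-BB array 2 (0.061).

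Genes that act around the PDGF receptors were described as lists, by counts and medians, without a test of any list. Every rise or fall of these genes is given on the log2 scale unless a fold is named. The lists were chosen with earlier results of these data known, so their shares are descriptions. Over all genes 21.5% were called, 10.1% higher and 11.4% lower, with a median log2 change of -0.02. With the replicate block 10.9% were higher and 12.5% lower, and at an unadjusted p under 0.05, 15.3% and 17.4%. Among 8 measured genes of ligand processing, 2 rose and 1 fell (37.5% called, median log2 change 0.05). Plat, tissue plasminogen activator, which removes the CUB domain of the C chain, measured 11.46, 11.53 and 11.65 with PDGF-BB and 11.08, 11.10 and 11.06 in control (log2 change 0.47, SE 0.07, adjusted p = 0.0039, limma). Plaur, the receptor of urokinase, rose by 0.64 (SE 0.09). Plau, the urokinase that can release the D chain, had a log2 change of -0.41 that did not pass (adjusted p = 0.093) and passed once the arrays were blocked by number (0.015) or PDGF-BB array 3 was omitted (0.025). Furin had a change of 0.18 (adjusted p = 0.086). Pcsk5, a furin-like convertase with values under 7.64, had one of -0.26 (adjusted p = 0.047), a call that failed on omitting control array 2, control array 3 or a single PDGF-BB array (0.081 to 0.14), with repeated quantile normalization (0.084) and with median centring (0.070).

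Of 16 measured co-receptors and binding proteins 2 rose and 4 fell (37.5% called against 21.5% of all genes, median -0.01). Nrp1, neuropilin 1, a co-receptor that also binds VEGF, measured 11.42, 11.23 and 11.48 with PDGF-BB and 12.44, 12.12 and 12.26 in control (log2 change -0.89, SE 0.10, adjusted p = 0.0023, limma). S1pr1, a sphingosine-1-phosphate receptor that takes part in PDGF-driven migration, fell by 1.25 (SE 0.26), with an adjusted p of 0.055 without control array 3. Itgb3, the β3 integrin subunit, rose by 0.70 (SE 0.09), and Hspg2, the heparan sulphate proteoglycan perlecan, by 0.48 (SE 0.09). Lrp1, a large endocytic co-receptor, had a log2 change of 0.23 (adjusted p = 0.29). Slc9a3r2, a scaffold that binds the receptor's tail, and Thbs1, thrombospondin 1, which was named after its value was seen, were the other 2 that fell (-0.39 and -0.46). On dropping control array 3 or PDGF-BB array 1, 2 genes of the list fell. Slc9a3r2 missed the threshold on omitting a single PDGF-BB array, whichever it was (adjusted p = 0.055 to 0.060), and Thbs1 on omitting control array 2, control array 3 or PDGF-BB array 1 (0.073 to 0.098) and with repeated quantile normalization (0.052).

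Proteins that dock on the activated receptors or carry the signal onward made up a list of 26 measured genes. Of these, 2 rose and 5 fell (26.9% called against 21.5% of all genes, median -0.09). Rasa1, the RasGAP that binds PDGFR-β and turns Ras off, measured 12.45, 12.50 and 12.46 with PDGF-BB and 11.97, 11.84 and 11.84 in control (log2 change 0.59, SE 0.06, adjusted p = 0.0017, limma). Gab1, a docking protein of PI3-kinase and SHP2, fell by 0.65 (SE 0.09). Plcg1, phospholipase C-γ1, fell by 0.41 (SE 0.07), and Sos2, a Ras exchange factor, fell by 0.38 (SE 0.07). The other rise was that of Pik3r3, a regulatory subunit of PI3-kinase (0.63), and the other genes that fell were the Src family kinases Fyn (-0.46) and Yes1 (-0.40), named after their values were seen. Each of these 3 missed the threshold when control array 1, control array 2 or PDGF-BB array 2 was dropped (adjusted p = 0.052 to 0.13). Those of Fyn and Yes1 were also lost without PDGF-BB array 1 (0.076 and 0.11), that of Pik3r3 without PDGF-BB array 3 (0.11), and that of Yes1 on dropping control array 3 (0.056) and with the block (0.057). Blocking by array number gave 8 genes of the list that fell, against 3 on dropping control array 2, PDGF-BB array 1 or PDGF-BB array 2. Dropping either of the controls numbered 1 and 2, or of the PDGF-BB arrays numbered 2 and 3, left 1 gene that rose.

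Among 15 measured attenuators of receptor signalling 3 rose and 1 fell (26.7% called against 21.5% of all genes, median 0.06). Lrig1, a transmembrane protein that restrains receptor tyrosine kinases, measured 12.32, 12.34 and 12.47 with PDGF-BB and 11.62, 11.14 and 11.32 in control (log2 change 1.02, SE 0.12, adjusted p = 0.0025, limma). Its relative Lrig3 fell by 0.52 (SE 0.10), with all PDGF-BB arrays below all controls. Sh3kbp1, an adaptor of CBL-mediated receptor uptake, rose by 0.50 (SE 0.08), and Errfi1, a feedback inhibitor of the EGF receptor, by 0.32 (SE 0.07). The ubiquitin ligases Cbl and Cblb had log2 changes of -0.00 and -0.06 (adjusted p = 0.99 and 0.67). Errfi1 missed the threshold on dropping any of 4 arrays, the controls numbered 2 and 3 and the PDGF-BB arrays numbered 2 and 3 (adjusted p = 0.051 to 0.060).

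Of 19 measured transcription factors linked to the control of PDGF or PDGF receptor genes, 1 rose and 0 fell in limma. The share called was 5.26% against 21.5% of all genes, and the median was -0.09. At an unadjusted p under 0.05 the counts were 2 and 3, where 15.3% of all genes were higher and 17.4% lower. The one that rose was Myc, at 11.66, 11.84 and 11.54 with PDGF-BB and 11.20, 10.87 and 10.67 in control (log2 change 0.76, SE 0.14, adjusted p = 0.010). Egr1, an immediate early factor that acts on the human PDGFA promoter, had a log2 change of -0.14 (adjusted p = 0.12), and Ebf1 had one of -0.46 (adjusted p = 0.15) that passed once arrays were blocked by number (0.039). On dropping control array 1 or PDGF-BB array 3, 1 gene of this list fell.

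A list of 15 measured relatives of the family held the VEGF ligands and receptors, the class III receptor tyrosine kinases and their ligands. Of these, 3 rose and 4 fell (46.7% called against 21.5% of all genes, median -0.06). Vegfd, a lymphatic growth factor with the same cystine-knot fold, measured 11.41, 11.54 and 11.53 with PDGF-BB and 13.03, 13.40 and 13.37 in control (log2 change -1.77, SE 0.11, adjusted p = 4.7e-04, limma). Vegfc, its closest relative, fell by 1.34 (SE 0.15), whereas Vegfa had a change of 0.32 that did not pass (adjusted p = 0.12; 0.048 with the replicate number as a block). Kitl, the ligand of KIT, rose by 1.30 (SE 0.21), and Il34, a ligand of the CSF1 receptor, by 0.67 (SE 0.12), while Csf1, the other ligand of that receptor, fell by 0.37 (SE 0.09). Their receptors Kit and Csf1r lay under 7.64, with means of 7.03 and 6.72 with PDGF-BB and 7.09 and 6.86 in control. Pdgfrl, a PDGF receptor-like protein named after its value was seen, fell by 0.45 (adjusted p = 0.033). Pgf, placental growth factor, was higher by 0.66 at values around background (adjusted p = 0.045). Pdgfrl missed the threshold whichever PDGF-BB array was dropped (adjusted p = 0.080 to 0.10), and 2 genes of the list then fell. Csf1 did so too, and on dropping control array 2 (0.054 to 0.081). Pgf missed it on dropping the arrays numbered 2 or 3 in control, or 1 or 3 with PDGF-BB (0.096 to 0.13), with array weights (0.064) and with a trended, robust variance (0.053).

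Of 12 genes that ERK signalling induces and that mostly feed back on it, 9 rose and 0 fell (75.0% called against 21.5% of all genes, median 0.73). At an unadjusted p under 0.05 the counts were 10 and 0, where 15.3% of all genes were higher and 17.4% lower. Like the other lists, this one was chosen with earlier results of these data known, so its share is no independent readout. Dusp6, the ERK phosphatase, measured 11.43, 11.42 and 11.32 with PDGF-BB and 9.99, 9.93 and 9.98 in control (log2 change 1.43, SE 0.06, adjusted p = 3.1e-04, limma). Etv5 and Etv4, ETS transcription factors, rose 2.83-fold and 2.57-fold. Of the 3 that did not pass, Spry1 had a change of 0.40 and Spry2 one of 0.28, which passed with the block (adjusted p = 0.044 and 0.036), and Dusp5 one of -0.11.

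**Figure D4:**
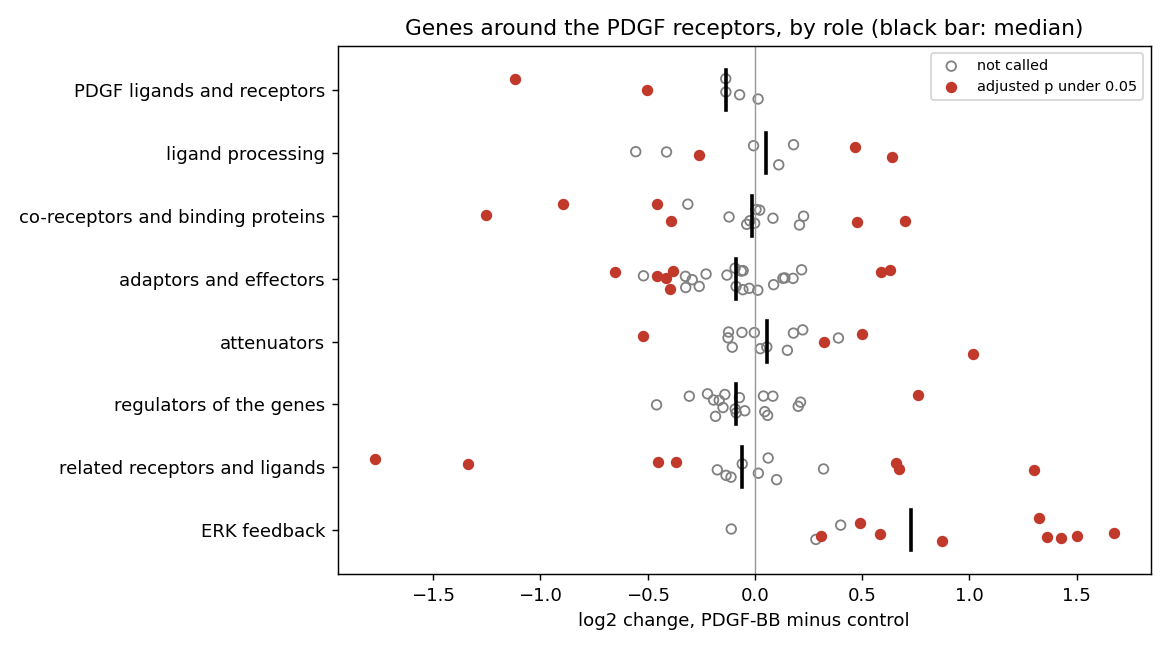
Log2 change (PDGF-BB minus control) of each measured gene in the lists around the PDGF receptors, which were chosen with earlier results of these data known. Filled red points passed limma's test (adjusted p under 0.05), open points did not, and the black bar is the list's median, which is 0.73 for the ERK feedback list and between -0.14 and 0.06 for the other 7.

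In these bulk cultures, fewer cells of a type and less RNA per cell cannot be told apart. Beside the counts below, 11.4% of all genes were called lower and 10.1% higher (12.5% and 10.9% with the replicate block). The share called was 71.4% of smooth muscle, 40% of fibroblast, 33.3% of platelet, 25% of macrophage and 14.3% of pericyte markers. Markers of smooth muscle moved with the treatment: 4 of 7 fell and 1 rose. Their mean level was 8.81 to 9.31 on PDGF-BB arrays and 9.94 to 10.49 on control arrays. Those that fell included Cnn1, Tagln and Lmod1, with log2 changes of -2.36 (SE 0.46), -2.08 (SE 0.38) and -1.01 (SE 0.11). Each of these kept its call under all 14 alternatives. The mean level of the fibroblast list, of which 3 genes rose and 1 fell, was 11.80 to 12.15 with PDGF-BB and 11.74 to 11.77 in control. The list's median log2 change was 0.12, with Lum at 2.91 (SE 0.47), Pdpn at 0.64 (SE 0.06) and Mfap5 at -2.52 (SE 0.49). Of the 10 genes, 6 were not called. Col3a1, one of those that rose, missed the threshold with the replicate block (adjusted p = 0.054) and on dropping any array but PDGF-BB 1 (0.069 to 0.13). Of the endothelial list 0 of 12 were called in limma, with 1 at an unadjusted p under 0.05 and 1 called without PDGF-BB array 3, and its mean level was 7.41 to 7.49 with PDGF-BB and 7.40 to 7.44 in control. In the macrophage list 1 of 12 rose and 2 fell, with means of 6.96 to 7.07 with PDGF-BB and 6.99 to 7.07 in control. Of its genes 10 lay under 7.64, with Ptprc and Adgre1 among them, and 2 lay above both levels. Those were Cd14, which rose, at means of 9.20 with PDGF-BB and 8.41 in control, and Cd68, which fell, at 8.96 with PDGF-BB and 9.39 in control. Lyz2, the other macrophage marker that fell, lay under 7.64, at means of 5.80 with PDGF-BB and 6.29 in control. In the platelet list 2 of 6 fell, with means of 7.41 to 7.45 with PDGF-BB and 7.55 to 7.76 in control. Pf4, Ppbp and Gp9 lay under 7.64, whereas Itga2b, Gp1bb and Treml1 lay above both levels. Itga2b, which fell, had means of 8.32 with PDGF-BB and 8.87 in control. Ppbp, the other that fell, had means of 6.00 with PDGF-BB and 6.58 in control. In the pericyte list 1 of 14 rose and 1 fell, with means of 7.94 to 8.06 with PDGF-BB and 7.95 to 8.02 in control, and with the replicate block 2 rose and 2 fell. Smtn, the smooth muscle marker that rose, missed the threshold with the replicate block (adjusted p = 0.067), with repeated quantile normalization (0.059) and on dropping any array but control 1 (0.066 to 0.13). Acta2, one of the 4 that fell, missed it on dropping any of the controls or PDGF-BB array 1 (0.058 to 0.067), and Cd248, the pericyte marker that fell, on dropping any array but control 1 (0.081 to 0.13). The counts that fell became 1 in the macrophage list on dropping PDGF-BB array 1 or 2, and 1 in the platelet list on dropping control array 3 or any PDGF-BB array. The part of any of these markers in the changes of Pdgfd and Pdgfa was not tested.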

How the data were processed

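The log2 expression values of 21225 probe sets on 6 arrays are the authors' own, deposited after RMA as the submitters' processing notes name it. The sources used here give no software version, array definition or filter. RMA equalises the arrays' distributions, so changes are relative to other genes. GEO's annotation names 20239 probe sets with 1 symbol; 986 (4.65%) have none and entered only an alternative.

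Groups came from sample titles. The fit was limma 3.58.1 (R 4.3.3), lmFit and eBayes on all named genes without a filter, two-sided, Benjamini-Hochberg adjusted over 20239 genes, tested on simulated data. Changes are given on the log2 scale, the PDGF-BB mean less the control mean. Precision is limited by the number of arrays, which have no read depth.

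The members and the lists (16 with 232 entries, 217 of them measured; the others are not analysed here) were chosen with earlier results of these data known. Genes named by rule are the members, up to 3 called genes per list and direction with the smallest p, and the 3 genes most correlated with each called member. Not all of these are described. Other genes named in the text, such as Furin, Lrp1, Egr1 and Acta2, lie outside this rule and were not picked by it.

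The labels number arrays 1 to 3 in both groups. Deviations from group means correlated at 0.25, 0.32 and 0.25 between arrays of the same number and at -0.28 to 0.01 otherwise. Deviations within a group cancel out, so the lower values partly follow from the higher ones and are no separate evidence of pairing. The main fit left the array numbers out, and its intervals and adjusted p are those given unless the block is named. Pairing by number entered only as the replicate block, an alternative. No array copied another: arrays of a group differed by a median of 0.0896 to 0.105. Alternatives were other normalization, centring, dim-gene filters, the replicate block, a trended robust variance, array weights and leaving out each array.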

Additional observations from a re-analysis of the deposited data

How the results depend on the processing

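Pdgfa and Pdgfd stayed lower with an adjusted p under 0.05 in limma under all 14 alternatives run, with log2 changes of -0.55 to -0.45 and -1.24 to -0.90 and adjusted p of 0.0038 to 0.020 and 0.0056 to 0.031. With the replicate number as a block their adjusted p was 0.011 and 0.013, 4741 genes were called against 4342 without it, and no call among the 6 genes changed. Pdgfb, Pdgfra and Pdgfrb kept their sign without passing under each alternative that tested them (adjusted p at least 0.18, 0.31 and 0.21); Pdgfb drops out when only the brighter genes, above the 50th percentile of mean level, are kept. The Pdgfc log2 change turned to -0.0060 with repeated quantile normalization and ranged from -0.22 to 0.42 when 1 array was left out; the cause was not tested. Leaving out 1 array gave 2934 to 4219 genes changed by PDGF-BB. Taking organ-restricted genes as absent gave the same 5 of 6 genes above background. With 3 arrays a group, and no detection calls, small changes and changes of dim transcripts such as Pdgfb may go unseen.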
